A study of Danio rerio with 34 samples.

Results

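The comparison set 6 testis RNA libraries of adult zebrafish exposed to 10 nM PCB126 against 6 from fish exposed to 3 nM. The members were chosen by library title, 12 of the 18 RNA libraries and of the 34 samples in the study. The exposed fish were in PCB126 for 24 h and then in clean water for 7 days before the testis was taken, and the 6 libraries of the carrier DMSO served as the baseline for both concentrations. All groups are whole adult testis. The labels used here give no strain, age or number of fish behind a library, and the study describes its replicates as biological. The question was which gene responses grew between the concentrations and which had reached their size at 3 nM.

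PCB126 is a coplanar polychlorinated biphenyl that binds the aryl hydrocarbon receptor (AHR), as dioxin does. The bound receptor moves to the nucleus, pairs with ARNT and switches on genes of foreign compound metabolism, above all the cytochrome P450 genes of the CYP1 family. It also switches on its own brakes, the AHR repressors and the ADP-ribosyltransferase TIPARP. In zebrafish ahr2 is the receptor through which dioxin-like compounds mainly act. The testis holds germ cells at all stages, Sertoli cells that nurse them, Leydig cells that make androgens, vessels and resident immune cells.

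The DMSO libraries held between 16.2 and 29.8 M counts, the 3 nM libraries between 21.8 and 29.1 M and the 10 nM libraries between 18.6 and 26.8 M (M, 1e6). Levels are given in CPM, counts per 1e6 counts after TMM scaling, which allow a gene to be compared between libraries but not with another gene. Markers of testis cells were present in every library, with amh of Sertoli cells at 311 to 723 CPM in DMSO, 222 to 579 CPM at 3 nM and 209 to 517 CPM at 10 nM, and ddx4 of germ cells at 1095 to 1495 CPM in DMSO, 1074 to 1836 CPM at 3 nM and 1088 to 1828 CPM at 10 nM. The oocyte marker zp2.1 stayed between 0.0305 and 0.309 CPM in DMSO but reached 14.6 CPM in a 3 nM library and 5.43 CPM in a 10 nM library. A set of 5 exposed libraries, namely replicates 1, 5 and 6 at 10 nM with replicates 4 and 6 at 3 nM, stood apart. Their scores on the leading principal component (39.7% of the variance) were 48.4 or more, against -3.82 or less in the other 13 libraries. Mitochondrial genes took 3.80% or more of the counts in these 5 and 3.56% or less in the others. These 5 were picked from the data. Values without them are given for the genes called between 10 nM and 3 nM, for the gene lists, and for the genes called at 3 nM as their calls, intervals or differences.

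Between 10 nM and 3 nM 31 genes were called, 29 higher and 2 lower at 10 nM. That is 0.129% of the 24053 genes tested, 0.121% in the higher and 0.00831% in the lower direction. A gene was called at a Benjamini-Hochberg adjusted p under 0.05 in the quasi-likelihood F-test of edgeR, which gave every adjusted p below. At an unadjusted p under 0.05 there were 2830 genes. The genes called higher included the CYP1 genes CYP1B1 and cyp1c2, the AHR brake tiparp, and CYB5A, which can pass electrons to some P450 enzymes. Of the 29, 8 had clone-based symbols or none. The median log2 difference of the 29 was 1.99 between 10 nM and 3 nM, and 0.03 between 3 nM and DMSO. All 29 were also called higher at 10 nM than in DMSO, where 7.4% of all genes were called higher and 3.44% lower, whereas 3 were called at 3 nM. The 29 were chosen on libraries that also enter both comparisons with DMSO. Chance in these libraries raises the difference at 10 nM and lowers that at 3 nM, so neither is separate support. The number depended on the tool and on single libraries. DESeq2 called 701 genes, 582 higher and 119 lower, whereas edgeR on the 12 exposed libraries alone called 0 (2177 at an unadjusted p under 0.05). Without the 5 libraries apart edgeR called 0 (1663 at an unadjusted p under 0.05). Leaving out 10 nM replicates 1 to 6 in turn gave 1, 355, 265, 196, 0 and 0 calls, and leaving out 3 nM replicates 1 to 6 gave 5, 11, 0, 1, 0 and 6. Leaving out DMSO replicates 1 to 6 gave 19, 9, 9, 9, 19 and 10. All 31 genes kept their sign and had an unadjusted p under 0.05 without the 5 libraries, and their log2 differences were then a median 0.532 times as large. The remaining libraries were also in the fit that chose the 31, so this is no separate support. The smallest adjusted p of any gene was then 0.421.

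CYP1A1 (ENSDARG00000098315), the name table's symbol for zebrafish cyp1a, had the largest log2 difference of the 50 genes called between 3 nM and DMSO. It encodes the monooxygenase that is the standard readout of AHR activity. Its level was 2.43 to 4.85 CPM (median 3.22) in DMSO, 409 to 1001 CPM (median 696) at 3 nM and 815 to 2544 CPM (median 1892) at 10 nM. The medians stepped up with concentration, and all exposed libraries lay far above all DMSO libraries, although the lowest 10 nM library lay within the 3 nM range. The log2 difference between 10 nM and 3 nM was 1.42 ± 0.30 (SE, adjusted p = 0.0519), with a 95% interval of 0.79 to 2.05, so the gene narrowly missed the call, and it was 0.73 without the 5 libraries apart. The difference between 3 nM and DMSO was 7.59 ± 0.40 (SE, adjusted p = 2.51e-09).

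CYP1B1 (ENSDARG00000068934), which oxidises estrogens and polycyclic hydrocarbons, grew with dose. It lay at 0.137 to 0.579 CPM (median 0.467) in DMSO, 5.49 to 13.9 CPM (median 10.8) at 3 nM and 18.03 to 46.5 CPM (median 34.1) at 10 nM. None of the 3 groups overlapped. Its log2 difference was 4.62 ± 0.38 (SE, adjusted p = 2.79e-06) between 3 nM and DMSO and 1.73 ± 0.31 (SE, adjusted p = 0.0392) between 10 nM and 3 nM, and the further difference was 1.75 without the 5 libraries apart. CYB5A (ENSDARG00000098589), cytochrome b5, also grew with dose, with 23.9 to 44.8 CPM (median 29.0) in DMSO, 97.9 to 375 CPM (median 170.1) at 3 nM and 348 to 922 CPM (median 621) at 10 nM. The lowest 10 nM libraries overlapped the highest 3 nM library. It differed by 1.69 ± 0.31 (SE, adjusted p = 0.0399) between 10 nM and 3 nM, 1.40 without the 5 libraries apart, after 2.63 ± 0.33 (SE, adjusted p = 0.000451) between 3 nM and DMSO. The brake gene tiparp (ENSDARG00000061841) was called in both steps. It had 39.4 to 52.4 CPM (median 48.3) in DMSO, 58.8 to 85.0 CPM (median 79.9) at 3 nM and 106 to 159.7 CPM (median 124) at 10 nM, with no overlap between any of the groups. The steps were 0.70 ± 0.12 (SE, adjusted p = 0.0177) between 3 nM and DMSO and 0.74 ± 0.12 (SE, adjusted p = 0.0288) between 10 nM and 3 nM, the upper one 0.69 without the 5 libraries apart.

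The other CYP1 genes are given next. For cyp1c1 (ENSDARG00000101195), a CYP1 gene found in fish, levels were 1.62 to 9.77 CPM (median 1.97) in DMSO, 13.1 to 38.5 CPM (median 25.7) at 3 nM and 44.2 to 80.5 CPM (median 76.6) at 10 nM. The 10 nM and 3 nM libraries did not overlap, and the log2 difference between them was 1.47 ± 0.38 (SE, adjusted p = 0.0939), 1.48 without the 5 libraries apart, after 2.78 ± 0.41 (SE, adjusted p = 0.00312) between 3 nM and DMSO. Its neighbour in name cyp1c2 (ENSDARG00000101789) was not called between 3 nM and DMSO, with 7.39 to 15.04 CPM (median 10.1) in DMSO, 7.10 to 13.8 CPM (median 10.3) at 3 nM and 15.7 to 73.2 CPM (median 36.3) at 10 nM. The 3 nM libraries lay within the range of DMSO or just below it, whereas all 10 nM libraries lay above all 3 nM libraries. The log2 difference was 1.89 ± 0.30 (SE, adjusted p = 0.0288) between 10 nM and 3 nM and -0.06 ± 0.30 (SE, adjusted p = 0.936) between 3 nM and DMSO, where its 95% interval ran from -0.68 to 0.57. The upper step of cyp1c2 was 1.29 without the 5 libraries apart. The difference in step between cyp1c1 and cyp1c2 was not tested. For cyp1d1, the remaining CYP1 gene, values were 7.03 to 10.9 CPM (median 9.97) in DMSO, 8.28 to 11.998 CPM (median 9.97) at 3 nM and 7.30 to 12.5 CPM (median 11.5) at 10 nM, with overlapping groups, and the log2 difference between 10 nM and 3 nM was 0.14 ± 0.15 (SE, adjusted p = 0.812).

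The receptor and its repressors were read next. The receptor gene ahr2 (ENSDARG00000021833) had 21.7 to 35.5 CPM (median 33.3) in DMSO, 40.9 to 70.14 CPM (median 58.3) at 3 nM and 65.2 to 157 CPM (median 98.3) at 10 nM. All exposed libraries lay above all DMSO libraries, and the exposed groups overlapped slightly. Its log2 difference was 0.90 ± 0.19 (SE, adjusted p = 0.0502) between 10 nM and 3 nM and 0.90 ± 0.19 (SE, adjusted p = 0.056) between 3 nM and DMSO, neither of them called, and the further difference was 0.50 without the 5 libraries apart. The repressor gene ahrra (ENSDARG00000099702) was nearly silent in DMSO, where 1 library had 0 counts, with 0 to 0.461 CPM (median 0.346) in DMSO, 2.64 to 13.9 CPM (median 11.4) at 3 nM and 11.4 to 54.1 CPM (median 21.1) at 10 nM. The exposed groups overlapped, and the difference between 10 nM and 3 nM was 1.43 ± 0.43 (SE, adjusted p = 0.146), 1.002 without the 5 libraries apart. The second repressor gene, ahrrb, had 2.78 to 6.71 CPM (median 5.12) at 10 nM, against 3.63 to 5.68 CPM (median 5.08) at 3 nM, overlapping groups with a log2 difference of 0.04 ± 0.22 (SE, adjusted p = 0.976). The transcription factor gene foxq1b had 3.72 to 29.7 CPM (median 5.03) at 10 nM, against 1.72 to 3.50 CPM (median 2.23) at 3 nM, and its difference of 1.86 ± 0.45 (SE, adjusted p = 0.0769) was 0.92 without the 5 libraries apart. Its paralog FOXQ1 and the quinone reductase NQO1 had differences of 1.42 ± 0.66 and 0.35 ± 0.16 (SE), 1.69 and 0.20 without them.

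Of the 12 tested AHR target genes, 3 were called higher at 10 nM than at 3 nM and 0 lower, against 0.121% and 0.00831% of all genes. All 12 had a positive sign, against 12244 of all 24053 tested genes. Of the 12, 5 had every 10 nM library above every 3 nM library, as 0.54% of all genes had. The median log2 difference of the 12 was 1.42 between 10 nM and 3 nM, and 0.82 without the 5 libraries apart, against 0.01 and 0.00 for all tested genes. Between 3 nM and DMSO 5 of the 12 were called higher, against 0.129% of all genes, and the median was 0.80. The receptors and their partners were another list of 10 tested genes, which shares ahr2 with the AHR targets. It had a median of -0.01 between 10 nM and 3 nM, -0.03 without the 5 libraries apart, and 0 genes called. The list of Nrf2 and conjugation genes shares NQO1 with the AHR targets and holds redox and regulatory genes beside conjugation enzymes. It had 24 tested members, 0 called and a median of 0.08, -0.13 without the 5 libraries apart.

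**Figure D1:**
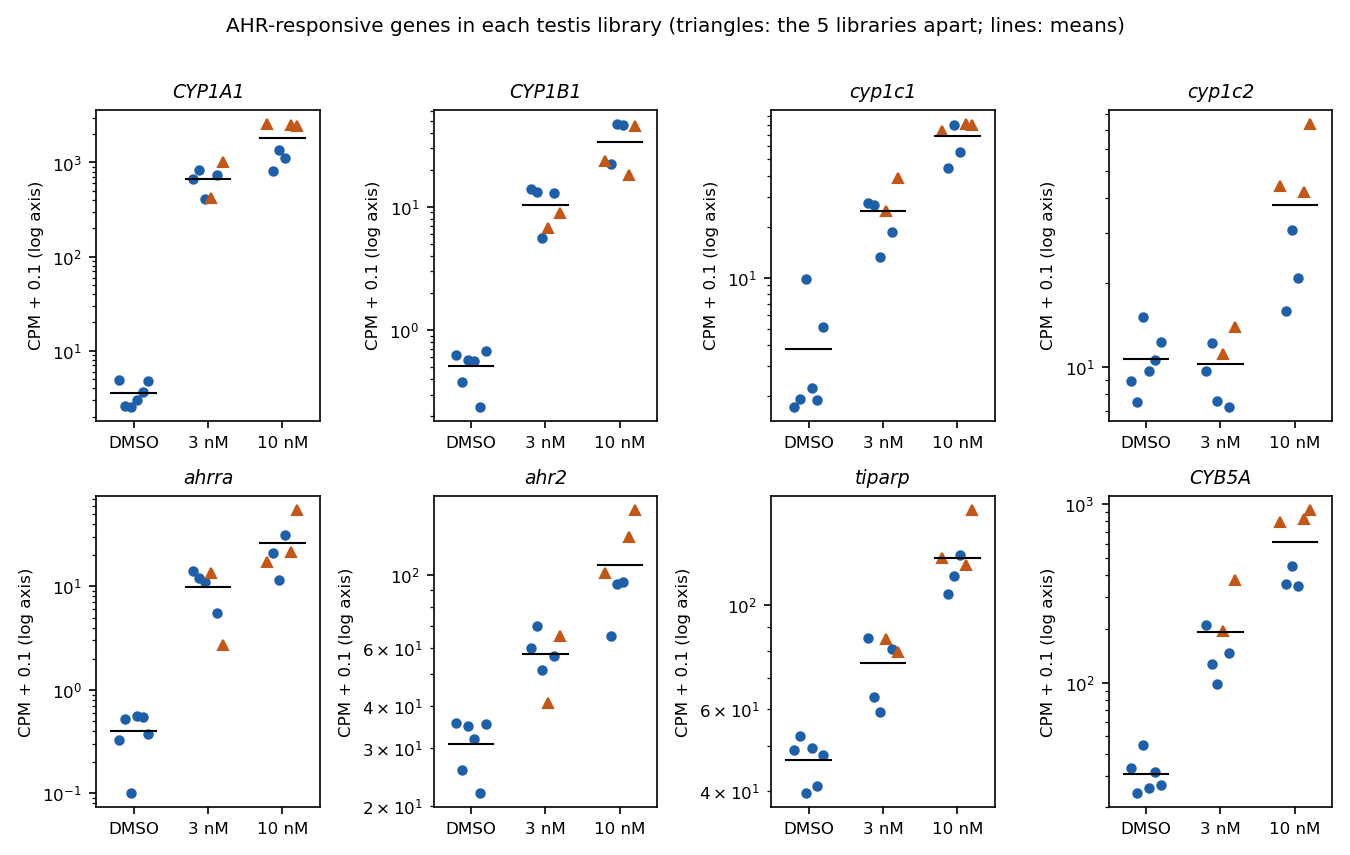
CPM + 0.1 (log axis) of 8 genes in each testis library, in DMSO, 3 nM and 10 nM. All are on the AHR target list except CYB5A, which was included as a gene called in these data. Circles and triangles are single libraries, triangles the 5 libraries apart and lines group means. The means of CYP1A1, CYP1B1 and CYB5A are higher at each concentration, while the cyp1c2 libraries at 3 nM lay beside DMSO.

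A response that grew in proportion to the concentration would have an excess over DMSO 3.33 times as large at 10 nM as at 3 nM, the ratio of the concentrations. This was computed for the genes whose 95% interval of 3 nM minus DMSO lay above 0 among the AHR targets and the genes called at 3 nM, with no test. For CYP1B1 the ratio was 3.40 (3.11 to 3.72 leaving out each exposed library in turn). For CYB5A it was 3.65 (3.27 to 4.73 leaving out each exposed library in turn), and for cyp1c1 3.09 (2.78 to 3.55 leaving out each exposed library in turn). These 3 genes lay about the concentration ratio, and the range of each held it. For CYP1A1 the ratio was 2.68 (2.45 to 2.97 leaving out each exposed library in turn), for tiparp 2.76 (2.48 to 2.96 leaving out each exposed library in turn), for ahr2 2.87 (2.49 to 3.18 leaving out each exposed library in turn) and for ahrra 2.74 (2.15 to 3.06 leaving out each exposed library in turn). The ranges of these 4 lay below 3.33. These ranges, like those above, show the weight of single exposed libraries and are not intervals of uncertainty. They do not set the 4 genes apart from proportion. For CYP1A1 and ahrra, which were low in DMSO, the 95% intervals of 10 nM minus 3 nM were 0.79 to 2.05 and 0.53 to 2.33. Both held 1.74, the log2 of the concentration ratio. Without the 5 libraries apart the interval of CYP1A1 was 0.17 to 1.29 and no longer held 1.74. That of ahrra was then 0.09 to 1.91 and still held it. CXXC5, a zinc finger gene that is no AHR target on the list, had 2.67 (2.40 to 3.30 leaving out each exposed library in turn). With the 5 libraries apart left out the ratio was 1.67 for CYP1A1, 1.87 for ahr2 and 2.05 for ahrra. It was then 3.46 for CYP1B1, 3.11 for CYB5A, 3.17 for cyp1c1, 2.75 for tiparp and 2.63 for CXXC5. The ratio of CYP1A1 and that of ahr2 moved by over 1.5 times.

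Of the 50 genes called between 3 nM and DMSO, 0.208% of those tested, 31 were higher and 19 lower at 3 nM (3417 at an unadjusted p under 0.05). Because these genes were chosen on 3 nM libraries that also enter the comparison with 10 nM, chance in those libraries pulls the further difference the other way. Of the 50, 3 grew with dose, CYP1B1, CYB5A and tiparp. For 24 others the 95% interval of 10 nM minus 3 nM lay wholly within 1 of 0 on the log2 scale. This limits the further change to under 2-fold, and 13 of the 24 were higher and 11 lower at 3 nM. The limit was not scaled to the change at 3 nM. That change was smaller than the limit for METRN (0.59), C1QBP (0.68), CKMT1B (0.68), PLPP1 (-0.78), LGR4 (-0.90), MAP3K15 (0.94) and NAT8L (0.98). For these genes the rule alone does not show a response complete at 3 nM. The interval of tiparp, 0.49 to 0.9997, also lay within that limit, but its call took precedence. The gene txlnbb was called in the opposite direction, and 22 met none of these rules. The interval held 0 for 28 of the 50, lay wholly in the direction of the change at 3 nM for 15 and wholly in the opposite direction for 7. Without the 5 libraries apart 65 genes were called between 3 nM and DMSO, and 40 of these 65 met the interval rule. Of the 50, all kept their sign then and 37 were still called. The 13 that were not, at adjusted p from 0.0575 to 0.204, were SLC4A4, LPL, cyp17a2, METRN, PLPP1, cryba1l1, cyp1c1, FN1 (ENSDARG00000006526), h2ax, ANGPTL4, si:dkey-26c10.5, ENSDARG00000087204 and ENSDARG00000101649. Of the 24, 22 had an interval within the limit without the 5 libraries, SLC3A1 and cyp17a2 being the exceptions at -0.28 to 1.03 and -0.34 to 1.39, and 17 were also still called at 3 nM. It was 13, 11 and 13 without 3 nM replicates 4, 5 and 6, and 10, 14, 15 and 15 without DMSO replicates 1, 3, 4 and 6. The number called between 3 nM and DMSO was 27, 25 and 29 without those 3 nM replicates and 25, 27, 33 and 29 without those DMSO replicates, and DESeq2 called 311.

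The raised genes with a limited further change came from several pathways. FZD9 (ENSDARG00000014673), a Wnt receptor, had 4.50 to 7.55 CPM (median 5.78) in DMSO, 12.03 to 24.6 CPM (median 16.9) at 3 nM and 13.1 to 20.8 CPM (median 16.1) at 10 nM. Its exposed groups overlapped almost wholly and stood clear of DMSO. The log2 difference was 1.55 ± 0.19 (SE, adjusted p = 0.000451) between 3 nM and DMSO and -0.03 ± 0.18 (SE) between 10 nM and 3 nM, with an interval of -0.42 to 0.36, and 0.14 without the 5 libraries apart. HES1, a repressor gene that Notch switches on, had 5.34 to 11.5 CPM (median 7.50) in DMSO, 13.9 to 32.6 CPM (median 18.6) at 3 nM and 11.3 to 28.1 CPM (median 19.8) at 10 nM, with overlapping exposed groups. The further difference was -0.03 ± 0.24 (SE) with an interval of -0.52 to 0.47, and 0.46 without the 5 libraries apart.

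A pair of genes of mitochondrial proteins met the rule as well. C1QBP, a protein of the mitochondrial matrix, had 72.1 to 91.6 CPM (median 76.7) in DMSO, 108 to 163 CPM (median 118) at 3 nM and 116 to 149.9 CPM (median 124) at 10 nM, with a further log2 difference of 0.03 ± 0.11 (SE) and an interval of -0.20 to 0.26, -0.06 to 0.42 without the 5 libraries apart. CKMT1B, the mitochondrial creatine kinase, had 24.7 to 35.4 CPM (median 33.8) in DMSO, 45.0 to 63.3 CPM (median 50.4) at 3 nM and 36.8 to 59.4 CPM (median 54.2) at 10 nM, with a further difference of -0.01 ± 0.12 (SE) and an interval of -0.27 to 0.25, -0.15 to 0.41 without them. Both stood above DMSO in every exposed library and overlapped between the concentrations. The interferon-induced gene ifi44f4 had 4.66 to 11.7 CPM (median 9.25) in DMSO, 14.95 to 21.6 CPM (median 19.1) at 3 nM and 15.3 to 20.7 CPM (median 17.9) at 10 nM and an interval of -0.45 to 0.33, -0.55 to 0.51 without them.

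For these genes the excess over DMSO at 10 nM was 0.967 times that at 3 nM for FZD9, 0.966 for HES1, 1.05 for C1QBP, 0.983 for CKMT1B and 0.927 for ifi44f4. FRMD4B, a scaffold gene with a FERM domain, had 0.776, and the crystallin gene cryba1l1 had 0.929. Other members lay between these and proportion, with 1.28 for the exchange factor ARHGEF19, 1.42 for the aspartate acetyltransferase NAT8L and 1.44 for the junction protein TMEM47. The ratio of HES1 was 1.68 without the 5 libraries apart. It was then 1.17 for FZD9, 1.41 for C1QBP, 1.27 for CKMT1B, 0.984 for ifi44f4, 0.956 for FRMD4B and 1.101 for cryba1l1. For ARHGEF19, NAT8L and TMEM47 it was 1.47, 1.66 and 1.37.

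A change limited to under 2-fold is not an absent one. The interval lay wholly above 0 for GUCY1A1, a subunit of the nitric oxide receptor guanylate cyclase, at 0.32 to 0.96, for the kinase MAP3K15 at 0.24 to 0.88 and for the secreted factor METRN at 0.05 to 0.52. These were 0.26 to 0.90, -0.10 to 0.50 and 0.06 to 0.70 without the 5 libraries apart, so that of MAP3K15 then held 0. GUCY1A1 had 11.1 to 16.2 CPM (median 14.2) in DMSO, 26.2 to 38.0 CPM (median 34.3) at 3 nM and 41.1 to 77.5 CPM (median 49.1) at 10 nM, and no group overlapped another. Its excess at 10 nM was 1.96 times that at 3 nM, 1.89 without the 5 libraries. For the integrin-like gene ITGBL1, which was lower in both exposed groups, the interval of -0.66 to -0.05 lay wholly below 0, whereas that of -0.68 to 0.12 without the 5 libraries held 0.

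Of the genes with a limited further change, 11 were lower at 3 nM. SLC4A4 (ENSDARG00000013730), a sodium bicarbonate cotransporter, had 26.8 to 63.5 CPM (median 35.3) in DMSO, 15.1 to 26.9 CPM (median 19.1) at 3 nM and 17.2 to 21.6 CPM (median 18.7) at 10 nM. Its exposed groups overlapped, and the highest 3 nM library lay just above the lowest DMSO library. The log2 difference was -1.05 ± 0.19 (SE, adjusted p = 0.0234) between 3 nM and DMSO and -0.06 ± 0.19 (SE) between 10 nM and 3 nM, with an interval of -0.46 to 0.35. Leaving out the 5 libraries apart gave a further difference of -0.20, and the adjusted p between 3 nM and DMSO in edgeR was 0.113. The bHLH factor gene tcf23 had 9.51 to 24.9 CPM (median 11.3) in DMSO, 1.44 to 4.98 CPM (median 2.32) at 3 nM and 0.388 to 4.72 CPM (median 3.09) at 10 nM, and its interval of -0.95 to 0.96 barely met the rule. The interval was -0.74 to 0.98 without the 5 libraries. The amino acid transporter subunit SLC3A1 had 11.4 to 27.9 CPM (median 14.7) in DMSO, 3.68 to 6.50 CPM (median 5.15) at 3 nM and 4.83 to 7.86 CPM (median 7.36) at 10 nM, with an interval of -0.06 to 0.87.

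Lipoprotein lipase LPL (ENSDARG00000087697) had 24.2 to 78.6 CPM (median 32.9) in DMSO, 13.8 to 23.7 CPM (median 16.7) at 3 nM and 13.7 to 26.6 CPM (median 22.0) at 10 nM, with an interval of -0.26 to 0.82 for the further difference, -0.59 to 0.98 without the 5 libraries. The 3 nM libraries lay below every DMSO library, and the 10 nM libraries overlapped DMSO slightly. In fish cyp17a2 encodes a steroid 17-hydroxylase, and it had 9.69 to 36.3 CPM (median 25.2) in DMSO, 5.47 to 12.6 CPM (median 8.08) at 3 nM and 5.69 to 16.4 CPM (median 10.2) at 10 nM and an interval of -0.30 to 0.95. The R-spondin receptor gene LGR4, arhgap28 and a gene without a symbol in the name table, ENSDARG00000076357, also met the rule, with intervals of -0.10 to 0.63, -0.35 to 0.83 and -0.89 to 0.19. With the 5 libraries left out these were -0.39 to 0.42, -0.38 to 0.77 and -0.70 to 0.00. For cd248a, a stromal surface protein gene, and PLPP1, a lipid phosphatase gene, both lower at 3 nM, the intervals of 0.03 to 0.93 and 0.28 to 0.94 lay wholly above 0, on the side of DMSO. These were -0.16 to 0.93 and -0.03 to 0.78 once the 5 libraries were left out.

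**Figure D2:**
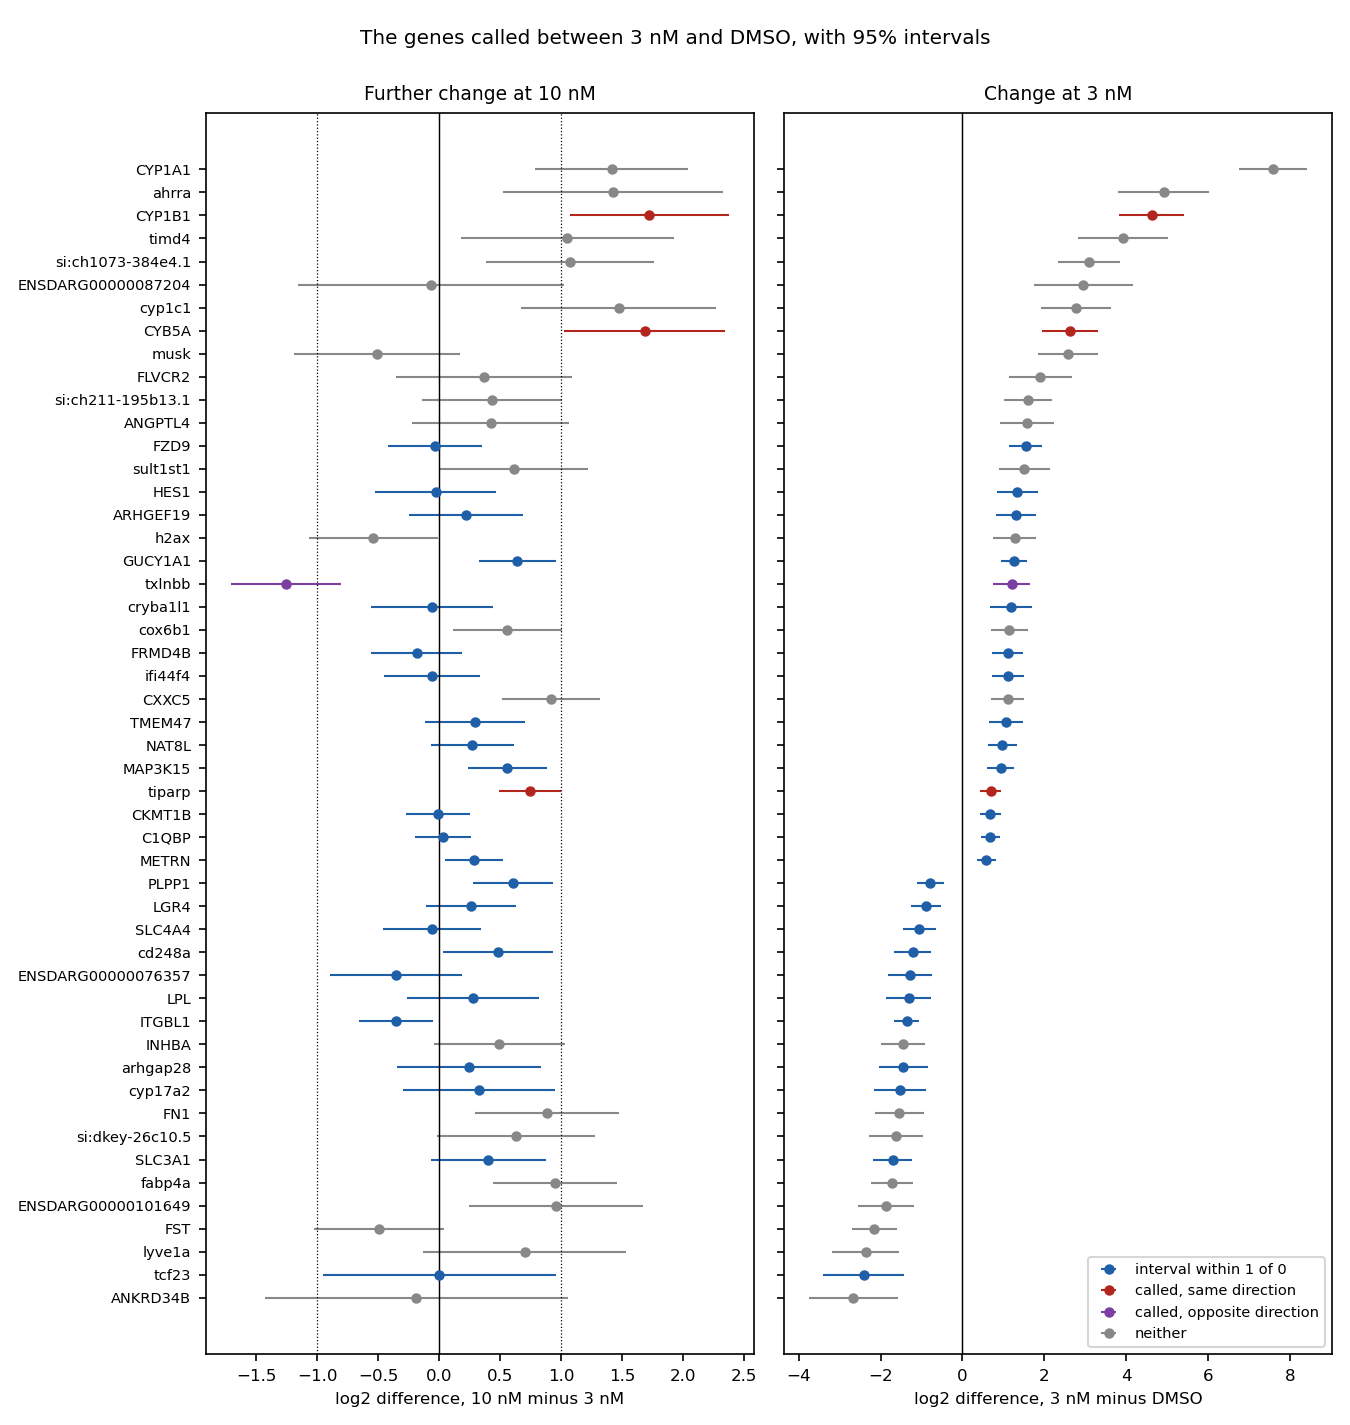
Log2 differences with 95% intervals of the 50 genes called between 3 nM and DMSO, 10 nM minus 3 nM on the left (dotted lines at -1 and 1) and 3 nM minus DMSO on the right, coloured by the rule each gene met. The 24 blue genes have intervals within the dotted lines, the 3 red genes CYP1B1, CYB5A and tiparp lie to the right of 0, and txlnbb lies to the left of -1 with a positive change at 3 nM. The interval of tiparp, red by its call, also ends just inside the dotted line at 1.

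Among the 22 genes that met none of the rules, the interval of the further difference was wholly in the direction of the change at 3 nM for 8. They included CYP1A1, cyp1c1 and ahrra, above, and CXXC5, a regulator of Wnt signalling, which had 5.79 to 10.6 CPM (median 8.33) in DMSO, 12.2 to 26.4 CPM (median 16.3) at 3 nM and 25.1 to 44.6 CPM (median 32.5) at 10 nM. The further log2 difference of CXXC5 was 0.92 ± 0.19 (SE, adjusted p = 0.0502), 0.85 without the 5 libraries apart, and the exposed groups overlapped. The phosphatidylserine receptor gene timd4 had 0 to 0.122 CPM (median 0.104) in DMSO, 0.667 to 2.51 CPM (median 1.34) at 3 nM and 0.969 to 5.10 CPM (median 2.44) at 10 nM, and 1 DMSO library had 0 counts. Its further difference was 1.05 ± 0.42 (SE, adjusted p = 0.303), 1.35 without the 5 libraries. The sulfotransferase gene sult1st1 had a further difference of 0.62 ± 0.29 and the cytochrome c oxidase subunit gene cox6b1 one of 0.56 ± 0.21 (SE), 0.49 and 0.30 without them. The eighth was ENSDARG00000097714. Of the other genes in this class the lymphatic receptor gene lyve1a, the heme transporter gene FLVCR2, the lipase inhibitor gene ANGPTL4, ANKRD34B, si:dkey-26c10.5, si:ch211-195b13.1 and ENSDARG00000087204 had intervals that held 0, and ENSDARG00000101649 had one on the side of DMSO.

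For some genes the 10 nM level lay back toward DMSO. The clearest was txlnbb (ENSDARG00000076241), a taxilin family gene, with 21.4 to 24.9 CPM (median 23.1) in DMSO, 24.2 to 72.8 CPM (median 61.3) at 3 nM and 17.7 to 25.7 CPM (median 22.0) at 10 nM. The 10 nM libraries lay beside DMSO, while 4 of the 3 nM libraries had over 50 CPM and the other two 24.2 and 30.2 CPM. It rose at 3 nM against DMSO, with a log2 difference of 1.1996 ± 0.22 (SE, adjusted p = 0.0204), and fell at 10 nM against 3 nM, with one of -1.26 ± 0.22 (SE, adjusted p = 0.0334), -1.29 without the 5 libraries apart. The fatty acid binding protein gene fabp4a, also a marker of fat cells, had 126 to 287 CPM (median 144) in DMSO, 36.3 to 72.5 CPM (median 51.9) at 3 nM and 69.2 to 124 CPM (median 109) at 10 nM. Its log2 difference was -1.73 ± 0.25 (SE, adjusted p = 0.00239) between 3 nM and DMSO and 0.95 ± 0.24 (SE, adjusted p = 0.093) between 10 nM and 3 nM, 0.60 without the 5 libraries apart. Fibronectin FN1 (ENSDARG00000006526) had 197 to 530.1 CPM (median 278) in DMSO, 70.0 to 181 CPM (median 87.6) at 3 nM and 138 to 287 CPM (median 169.5) at 10 nM, a further difference of 0.89 ± 0.28 (SE, adjusted p = 0.17), 0.56 without the 5 libraries, after -1.55 ± 0.29 (SE, adjusted p = 0.0261). Neither further difference passed the test. A second FN1 entry (ENSDARG00000019815) was not called between 3 nM and DMSO and did not share this pattern. Without the 5 libraries its log2 difference was -0.11 between 3 nM and DMSO. It was then 0.52 between 10 nM and 3 nM and 0.41 between 10 nM and DMSO. The kinase receptor gene musk had an excess at 10 nM 0.642 times that at 3 nM and the histone gene h2ax one of 0.469 (0.857 and 0.789 without the 5 libraries), with further log2 differences of -0.51 ± 0.33 and -0.54 ± 0.25 (SE), -0.20 and -0.16 without them.

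Activin genes sat among the lowered ones. Follistatin FST (ENSDARG00000057992), which binds and blocks activin, had 30.4 to 86.4 CPM (median 60.4) in DMSO, 8.52 to 18.8 CPM (median 12.7) at 3 nM and 7.17 to 13.2 CPM (median 9.08) at 10 nM. Every exposed library lay below every DMSO library. Its log2 difference was -2.15 ± 0.26 (SE, adjusted p = 0.000413) between 3 nM and DMSO and -0.49 ± 0.25 (SE, adjusted p = 0.496) between 10 nM and 3 nM, -0.41 without the 5 libraries apart. A second FST entry (ENSDARG00000052846) was not called between 3 nM and DMSO. It differed there by -0.86 (adjusted p = 0.165) without the 5 libraries. Its further difference was then 0.65, with an interval of 0.12 to 1.18, opposite in sign to that of the first entry. The activin subunit gene INHBA differed by -1.45 ± 0.26 (SE, adjusted p = 0.0201) between 3 nM and DMSO and by 0.49 ± 0.26 (SE, adjusted p = 0.494) between 10 nM and 3 nM, 0.83 without them. Of 15 tested members of the activin and follistatin list 0 were called between 10 nM and 3 nM, against 0.129% of all genes. Of the 15, 2 were called lower at 3 nM than in DMSO, against 0.079% of all genes. The list median between 10 nM and 3 nM was -0.01, and 0.01 without the 5 libraries.

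**Figure D3:**
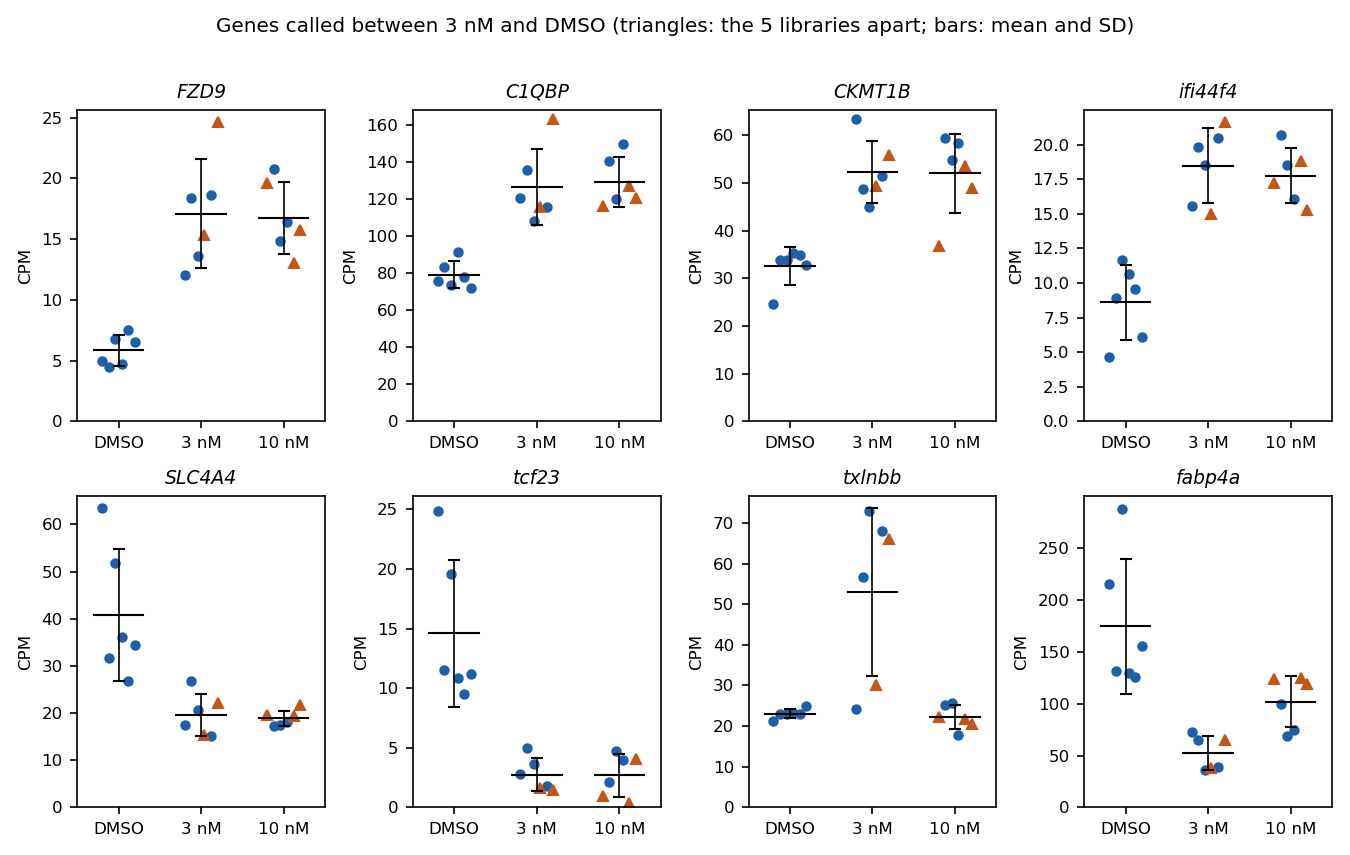
CPM in each testis library in DMSO, 3 nM and 10 nM for 8 genes called between 3 nM and DMSO, with bars as mean and SD (n = 6) and triangles as the 5 libraries apart. FZD9, C1QBP, CKMT1B, ifi44f4, SLC4A4 and tcf23 lay at similar levels in both exposed groups, whereas txlnbb at 10 nM lay beside DMSO and fabp4a lay between.

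Of the 29 genes called higher at 10 nM, 26 had a 95% interval of 3 nM minus DMSO that held 0. Their 3 highest 10 nM values lay in 10 nM replicates 1, 5 and 6 for 25 of the 29. Without the 5 libraries apart 23 of the 29 had log2 differences over 1.5 times smaller. The other 6 were CYP1B1, CYB5A, tiparp, cyp1c2, ZNF703 and shisa10.1. ZNF703, a transcriptional repressor gene, had 9.21 to 14.8 CPM (median 12.3) at 10 nM, against 5.53 to 7.59 CPM (median 6.80) at 3 nM, with no overlap. Its log2 difference was 0.87 ± 0.16 (SE, adjusted p = 0.0392), and 0.68 without the 5 libraries. The gene shisa10.1 had 62.1 to 84.5 CPM (median 76.1) at 10 nM, against 40.5 to 56.3 CPM (median 48.0) at 3 nM, also with no overlap, a difference of 0.62 ± 0.12 (SE, adjusted p = 0.0459) and 0.47 without them.

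The innate immune genes mmp13a and lyz were called with the highest log2 differences of the 31. Neutrophil lysozyme lyz had 16.3 to 757 CPM (median 58.9) at 10 nM, against 5.59 to 15.6 CPM (median 11.0) at 3 nM, so the groups did not overlap. The 10 nM values were 757 CPM in replicate 5, 587 in replicate 1 and 93.1 in replicate 6, against 24.7 or less in the other 10 nM libraries. The log2 difference was 4.57 ± 0.85 (SE, adjusted p = 0.0399), and 0.92 without the 5 libraries apart. The collagenase gene mmp13a had 2.74 to 352 CPM (median 15.9) at 10 nM, against 0.981 to 3.46 CPM (median 1.98) at 3 nM, a difference of 5.46 ± 1.01 (SE, adjusted p = 0.0399) and 1.21 without them. SPI1, the PU.1 factor of myeloid cells, had 3.32 to 23.5 CPM (median 11.4) at 10 nM, against 1.89 to 3.93 CPM (median 3.00) at 3 nM, a difference of 2.08 ± 0.40 (SE, adjusted p = 0.0488) and 0.53 without them. The complement genes c6.2 and c4b had differences of 2.11 ± 0.35 (SE, adjusted p = 0.0288) and 1.86 ± 0.35 (SE, adjusted p = 0.0439), 1.40 and 0.99 without them, and the immune checkpoint gene vsir had 1.91 ± 0.36 (SE, adjusted p = 0.0426) and 0.70. The groups overlapped for mmp13a, SPI1, c6.2, c4b and vsir, as for NUAK1 and CYB5A. The other 22 genes called higher had every 10 nM library above every 3 nM library, as 0.54% of all genes had. These genes were chosen on the same libraries, which favours such separation.

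Of 14 tested neutrophil markers 2 were called higher, lyz and mmp13a, where 0.121% of all genes were. The summed level of the list was 384 to 594 CPM in DMSO, 396 to 659.5 CPM at 3 nM and 472 to 2017 CPM at 10 nM. In DMSO the defining markers lyz, npsn and mmp13a had medians of 4.50, 5.76 and 1.23 CPM. Most of the sum in DMSO thus came from other members, and it is no measure of neutrophils alone. The median log2 difference of the list between 10 nM and 3 nM was 0.72, and 0.10 without the 5 libraries apart. The neutrophil protease gene npsn had 13.6 to 288 CPM (median 33.6) at 10 nM, against 9.14 to 11.9 CPM (median 10.2) at 3 nM, a difference of 3.40 ± 0.67 (SE, adjusted p = 0.0502), 0.59 without them, and no overlap. Of 30 tested macrophage markers SPI1 was called higher, where 0.121% of all genes were. A positive sign was found for 29 of these markers, against 12244 of all 24053 tested genes. Their summed level was 519 to 3043 CPM in DMSO, 439.6 to 654 CPM at 3 nM and 555 to 2001 CPM at 10 nM, and their median was 0.98, and 0.26 without the 5 libraries apart. The scavenger receptor gene marco had 8.05 to 24.5 CPM (median 10.4) in DMSO, 4.12 to 11.0 CPM (median 7.47) at 3 nM and 6.02 to 55.4 CPM (median 22.4) at 10 nM. Its difference between 10 nM and 3 nM was 1.89 ± 0.48 (SE, adjusted p = 0.0897), 0.21 without the 5 libraries, and the groups overlapped. The defining markers lyz, mmp13a, npsn, marco, csf1ra and cd74a were above 0 in every library, the summed levels of both lists overlapped between the groups, and mpx and mpeg1.1 were not matched to an identifier. In whole tissue more cells of a type and more RNA per cell cannot be told apart. The part of these cells in the other differences was not tested.

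Further genes called higher at 10 nM follow. TIMP2 (ENSDARG00000075261), an inhibitor of matrix metalloproteinases, had 15.1 to 86.1 CPM (median 36.4) at 10 nM, against 8.20 to 13.0 CPM (median 10.1) at 3 nM, with no overlap. Its log2 difference was 2.104 ± 0.33 (SE, adjusted p = 0.0288), and 1.26 without the 5 libraries apart. The serine protease gene HTRA3 and the elastic fibre gene EMILIN2 differed by 3.16 ± 0.53 (SE, adjusted p = 0.0288) and 2.40 ± 0.40 (SE, adjusted p = 0.0288), 1.64 and 1.07 without them. The cytokine brake SOCS3 had 25.9 to 76.7 CPM (median 38.0) at 10 nM, against 14.4 to 20.3 CPM (median 16.7) at 3 nM, a difference of 1.39 ± 0.25 (SE, adjusted p = 0.0392) and 0.72 without them. The guidance cue SEMA3F had 8.94 to 18.6 CPM (median 13.1) at 10 nM, against 4.45 to 7.39 CPM (median 5.51) at 3 nM, a difference of 1.27 ± 0.20 (SE, adjusted p = 0.0288) and 0.83 without them.

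CRABP2, which carries retinoic acid in the cell, had 3.76 to 27.8 CPM (median 14.4) at 10 nM, against 1.03 to 3.66 CPM (median 2.22) at 3 nM, a log2 difference of 2.73 ± 0.51 (SE, adjusted p = 0.0416) and 0.95 without the 5 libraries apart. The lipid phosphatase gene PLPP3 differed by 1.48 ± 0.27 (SE, adjusted p = 0.0392), the kinase gene NUAK1 by 1.49 ± 0.28 (SE, adjusted p = 0.0399) and the carboxylate transporter gene SLC16A9 by 1.99 ± 0.37 (SE, adjusted p = 0.0392). Without the 5 libraries these were 0.69, 0.84 and 0.73. The remaining genes higher at 10 nM had clone-based symbols or none, with log2 differences of 3.77 ± 0.55 for ENSDARG00000095580, 3.52 ± 0.58 for si:dkey-96g2.2, 2.37 ± 0.45 for si:dkey-238o13.4, 2.21 ± 0.39 for ENSDARG00000106784, 2.15 ± 0.39 for si:ch211-106h4.12, 2.003 ± 0.38 for ENSDARG00000086724, 1.83 ± 0.36 for si:rp71-1c10.7 and 1.52 ± 0.28 for zgc:162730 (SE). Without the 5 libraries apart the differences were, in the same order, 1.99, 1.99, 0.98, 1.21, 1.14, 0.74, 0.81 and 0.56. Without 10 nM replicate 1 the difference of si:dkey-238o13.4 was 1.55. Beside txlnbb, SERINC3 (ENSDARG00000086133), a serine incorporator gene, fell. It had 20.8 to 27.5 CPM (median 22.7) at 10 nM, against 31.4 to 35.1 CPM (median 33.7) at 3 nM, with no overlap, a log2 difference of -0.53 ± 0.10 (SE, adjusted p = 0.0392) and -0.44 without the 5 libraries.

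**Figure D4:**
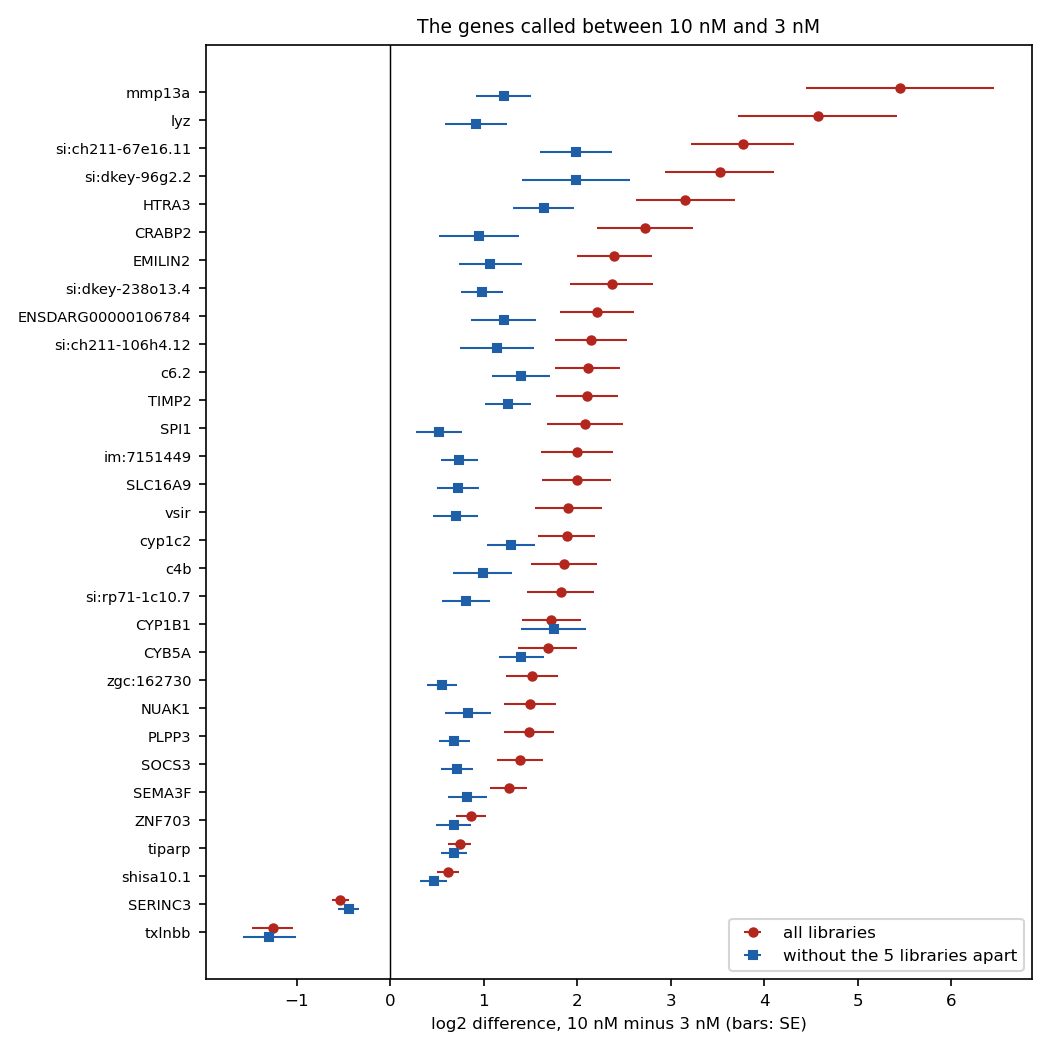
Log2 difference, 10 nM minus 3 nM, of the 31 called genes with all libraries (circles) and without the 5 libraries apart (squares), bars as SE. All keep their side of 0, CYP1B1, tiparp and txlnbb hardly move, and lyz and mmp13a shrink to 0.92 and 1.21.

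Immediate early genes, which answer within minutes to growth factors and stress, had 34 tested members. Of these, 1 was called higher, SOCS3, and 4 had no overlap above 3 nM, against 0.121% and 0.54% of all genes. The list median was 0.48, and 0.24 without the 5 libraries apart. JUNB had 14.4 to 40.1 CPM (median 19.4) at 10 nM, against 8.87 to 12.8 CPM (median 10.4) at 3 nM, with no overlap, and a log2 difference of 1.11 ± 0.23 (SE, adjusted p = 0.0502), 0.75 without them. CEBPB had 12.6 to 114 CPM (median 28.0) at 10 nM, against 7.10 to 12.1 CPM (median 9.66) at 3 nM, also with no overlap, and a difference of 2.11 ± 0.44 (SE, adjusted p = 0.0505), 0.44 without the 5 libraries. Of the 32 tested retinoic acid pathway genes 1 was called higher, CRABP2, and 2 had no overlap above 3 nM, against the same shares of all genes. The other was RDH10, which makes retinal from retinol, with 15.6 to 25.3 CPM (median 20.4) at 10 nM, against 12.3 to 14.9 CPM (median 13.2) at 3 nM and a difference of 0.56 ± 0.12 (SE, adjusted p = 0.0519), 0.39 without the 5 libraries. CYP26B1, which clears retinoic acid in the testis, had 1.77 to 7.86 CPM (median 4.92) at 10 nM, against 1.48 to 2.31 CPM (median 1.97) at 3 nM, overlapping groups with a difference of 1.30 ± 0.30 (SE, adjusted p = 0.0657), 0.81 without them. Without the 5 libraries CYP26B1 differed by -0.69 between 3 nM and DMSO and by 0.12 between 10 nM and DMSO. The median of that list was 0.20, and 0.25 without the 5 libraries.

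Of 33 tested matrix and smooth muscle genes TIMP2 was called higher, where 0.121% of all genes were. The list median was 0.47, and 0.22 without the 5 libraries apart. Between 3 nM and DMSO their median was -0.48, and both medians use the 3 nM libraries. Decorin DCN had 14.5 to 32.3 CPM (median 25.7) in DMSO, 10.7 to 22.6 CPM (median 11.8) at 3 nM and 19.6 to 83.3 CPM (median 33.8) at 10 nM, a further difference of 1.60 ± 0.33 (SE, adjusted p = 0.0505), 0.51 without the 5 libraries. The adipocyte list of 20 tested genes had a median of -0.45 between 3 nM and DMSO and 0.32 between 10 nM and 3 nM (0.21 without the 5 libraries), with 0 called in the further step.

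The meiosis and mitotic cell cycle lists lay on the other side of 0. Of 30 tested meiosis genes 29 had a negative sign between 10 nM and 3 nM, against 11809 of all 24053 tested genes. The meiosis list had a median of -0.32 and -0.34 without the 5 libraries apart. None of its genes was called, where 0.129% of all genes were. Of the 30, 3 had every 10 nM library below every 3 nM library, as 0.249% of all genes had. They included spata22 and the meiotic cohesin gene rad21l1. The gene spata22, needed for meiotic recombination in mouse, had 163 to 208 CPM (median 181) at 10 nM, against 218 to 329 CPM (median 262) at 3 nM, a log2 difference of -0.55 ± 0.12 (SE, adjusted p = 0.0621), -0.55 without the 5 libraries. The cohesin gene rec8b had 100.3 to 138 CPM (median 111) at 10 nM, against 135 to 219.9 CPM (median 168) at 3 nM, a difference of -0.59 ± 0.14 (SE, adjusted p = 0.0754), -0.56 without them. The mitotic cell cycle list had 31 of 33 tested genes with a negative sign, 0 called and a median of -0.23 with and without the 5 libraries. Its spindle checkpoint kinase TTK had 156 to 201 CPM (median 187) at 10 nM, against 207 to 229.6 CPM (median 217) at 3 nM, a difference of -0.26 ± 0.10 (SE, adjusted p = 0.275), -0.12 without them, with no overlap.

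**Figure D5:**
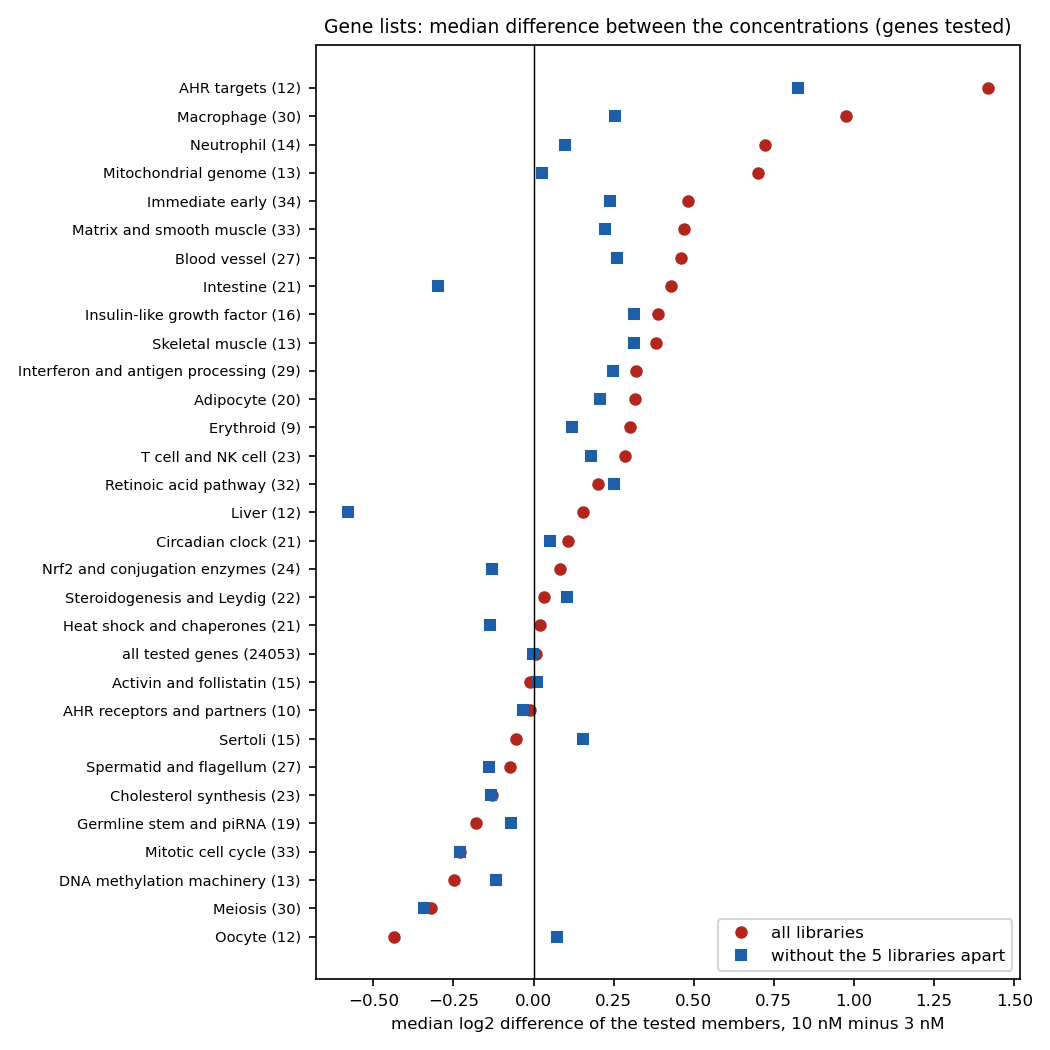
Median log2 difference, 10 nM minus 3 nM, of the tested members of each gene list with at least 5 of them, with their number in brackets, for all libraries (circles) and without the 5 libraries apart (squares). The AHR target list stands highest at 1.42 and 0.82, the macrophage and neutrophil lists drop to 0.26 and 0.10, and the meiosis list stays at -0.32 and -0.34.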

How the data were processed

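RNA was measured in testis. The authors deposited whole-number counts per gene for each library, not normalized. The build was GRCz10 and the tools named are STAR, HTSeq, FastQC and edgeR, per the submitters' processing notes. Per the labels' protocols, a stranded kit gave single-end reads of 50 bp. Neither the annotation release nor whether counting used strand is given in the sources used here, which leaves overlapping genes and close paralogs uncertain. The 18 tables held 35117 identifiers, of which 27000 had a symbol in the name table, which gives some genes the symbol of their human counterpart. No pair of replicates agreed within sampling noise (lowest chi-square per degree of freedom 17.3). A count of 3 equals 0.101 to 0.185 CPM over the libraries, for counting error only.

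The 18 libraries were fitted together in edgeR 4.0.16 under R 4.3.3, with filterByExpr, TMM, robust dispersions and 15 residual degrees of freedom, which left 24053 genes. Tests were two-sided quasi-likelihood F-tests with Benjamini-Hochberg adjustment over all genes, called under 0.05. The SE is the log2 difference over the square root of F, and 95% intervals use the t quantile. Summed list levels and CPM use TMM-scaled totals. The pipeline was tested on simulated counts.

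Of 674 names on 31 gene lists, 620 matched 648 identifiers. Named genes were all AHR targets, called genes with at least 1 CPM and a symbol, up to 12 genes that met the interval rule, and up to 4 members per other list by smallest p. Genes outside this rule, among them the other genes called at 3 nM, were named after their values were seen. The members and lists were chosen with earlier results of these data known. Alternatives were DESeq2 1.42.0 as a test and for scaling, no filter, a replicate block, the 12 exposed libraries alone, a narrower interval, each library left out, and, added after seeing the data, the 5 libraries apart left out. The replicate numbers did not clearly pair the samples and were not used in the main fit. The methylation tables hold group means and were not used here. Values of some single genes are not reported here.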

Additional observations from a re-analysis of the deposited data

Results flagged for a closer look

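Of 376 groups of 6 libraries examined, one for each named gene at each exposed concentration, 38 had a library far from the other 5 by the gap between it and its nearest neighbour over the whole range. Chance flags about 1 in 20 groups, and genes share their libraries. 10 nM replicate 6 stood apart for CIDEC at 9.35 CPM (1.38 to 3.80 in the others), ckmb at 10.4 CPM (0.531 to 4.14 in the others), foxq1b at 29.7 CPM (3.72 to 6.90 in the others) and GUCY1A1 at 77.5 CPM (41.1 to 49.7 in the others). It also stood apart for jac2 at 326 CPM (0.177 to 11.96 in the others), jac7 at 281 CPM (0.575 to 6.36 in the others), mt-nd4l at 156 CPM (48.0 to 69.0 in the others) and ENSDARG00000097714 at 97.99 CPM (15.3 to 30.2 in the others). The rest in that library were spi1a at 19.4 CPM (2.08 to 8.21 in the others), tfa at 238 CPM (1.95 to 41.7 in the others), TNNT3 at 9.92 CPM (0.620 to 2.35 in the others) and wt1b at 23.6 CPM (4.83 to 6.20 in the others). 10 nM replicate 1 stood apart for lepa at 16.7 CPM (0.0337 to 2.13 in the others), mmp13a at 352 CPM (2.74 to 131 in the others), prf1.2 at 6.95 CPM (0.221 to 1.70 in the others) and ENSDARG00000095580 at 64.4 CPM (5.96 to 26.2 in the others). It also stood apart for si:dkey-238o13.4 at 113 CPM (11.1 to 37.5 in the others), SLC6A19 (ENSDARG00000018621) at 6.74 CPM (0.115 to 2.26 in the others), SLC6A19 (ENSDARG00000056719) at 19.0 CPM (1.83 to 6.07 in the others) and SLC6A19 (ENSDARG00000091560) at 11.6 CPM (0.269 to 1.18 in the others). 10 nM replicate 5 stood apart for cldnd at 6.33 CPM (1.15 to 2.42 in the others) and cyp1d1 at 7.30 CPM (11.0 to 12.5 in the others). 3 nM replicate 6 stood apart for cd4-1 at 1.44 CPM (0.675 to 0.941 in the others), FLI1 at 8.62 CPM (4.36 to 5.17 in the others), INHBA at 5.15 CPM (1.70 to 3.00 in the others) and krt18a.1 at 807 CPM (414 to 525 in the others). It also stood apart for mt-atp8 at 41.0 CPM (17.3 to 24.3 in the others) and sult1st1 at 32.7 CPM (10.6 to 14.9 in the others). 3 nM replicate 2 stood apart for DCN at 22.6 CPM (10.7 to 14.6 in the others), FN1 (ENSDARG00000019815) at 21.8 CPM (8.52 to 12.6 in the others), IGF1 at 1.51 CPM (0.472 to 0.824 in the others) and igf2b at 21.9 CPM (9.93 to 14.2 in the others). It also stood apart for LPL at 23.7 CPM (13.8 to 17.4 in the others). 3 nM replicate 4 stood apart for cldnd at 66.0 CPM (1.12 to 3.34 in the others) and h1m at 50.8 CPM (0.234 to 2.19 in the others). 3 nM replicate 5 stood apart for jac2 at 10.9 CPM (0.746 to 4.24 in the others) and si:ch211-106h4.12 at 10.4 CPM (25.0 to 33.7 in the others). 3 nM replicate 1 stood apart for lgals2b at 399.5 CPM (0.303 to 2.05 in the others). What set these libraries apart was not tested.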

How the results depend on the processing

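The number of genes called between 10 nM and 3 nM was 31. It was 28 with the size factors of DESeq2 in edgeR and 27 without the filter, 701 with DESeq2 as the test, 0 in edgeR on the 12 exposed libraries alone and 0 without the 5 libraries apart. At an unadjusted p under 0.05 the last pair had 2177 and 1663 genes. Leaving out each library gave 0 to 355. Between 3 nM and DMSO the number of 50 became 311 with DESeq2, 65 without the 5 libraries apart and 25 to 55 leaving out each library. Between 10 nM and DMSO the number of 2609 became 4626 with DESeq2, 468 without the 5 libraries apart and 826 to 3855 leaving out each library. The number of genes with a limited further change was 24, 9 with a limit of 0.58 on the log2 scale (a 1.5-fold change), 40 without the 5 libraries apart and 10 to 32 leaving out each library. Genes called between 10 nM and 3 nM were not counted there. None of the 31 called genes reversed its direction under these alternatives, all of which share libraries with the fit that chose them. Without the 5 libraries apart 20 of 187 described genes changed sign, of which 0 were called, and with the size factors of DESeq2 no list median moved by more than 0.02 or changed sign. The shallowest library holds 16.2 M counts, and the 95% intervals reached a median 0.53 to either side of the log2 difference. Smaller differences of single genes were often not detectable. This is no limit for a call, which needed a p adjusted over all genes. Larger differences also missed it, such as 1.47 for cyp1c1. The cause of the differences between alternatives was not tested.

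The replicate numbers did not clearly pair the samples. Same-numbered 10 nM and 3 nM libraries had correlations of their deviations from -0.486 to 0.338, 2 of 6 over 0.1, and 1 of 6 libraries correlated best with its own number. For 3 nM with DMSO 3 of 6 were over 0.1 and 2 of 6 correlated best with their own number. For 10 nM with DMSO these were 1 and 1 of 6. Such correlations cannot exclude a batch shared by replicate number. With the replicate number as a block, edgeR called 0 genes between 10 nM and 3 nM (2205 at an unadjusted p under 0.05), 26 between 3 nM and DMSO and 684 between 10 nM and DMSO, and 11 genes had a limited further change.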

Other observations

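None of the members of the further gene groups was called between 10 nM and 3 nM, where 0.129% of all genes were. Of all 24053 tested genes 12244 had a positive sign. Interferon and antigen processing genes had 25 of 29 tested members with a positive sign and a median log2 difference of 0.32, 0.25 without the 5 libraries apart. Blood vessel genes had 24 of 27 with a positive sign and a median of 0.46, 0.26 without the 5 libraries. Their median was -0.24 between 3 nM and DMSO and 0.17 between 10 nM and DMSO, -0.30 and -0.09 without the 5 libraries. The endothelial gene cdh5 had 8.12 to 12.85 CPM (median 10.2) in DMSO, 6.50 to 8.41 CPM (median 7.97) at 3 nM and 7.34 to 20.0 CPM (median 12.8) at 10 nM. Its difference between 10 nM and 3 nM was 0.73 ± 0.21 (SE, adjusted p = 0.131), 0.23 without the 5 libraries. Insulin-like growth factor genes had 14 of 16 with a positive sign and a median of 0.39, 0.31 without the 5 libraries, with igf2b at 16.5 to 44.5 CPM (median 25.9) at 10 nM, against 9.93 to 21.9 CPM (median 13.1) at 3 nM. T cell and NK cell genes had a median of 0.29 over 23 tested, 0.18 without the 5 libraries.

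Mitochondrial transcripts had 13 of 13 with a positive sign, a median of 0.70 and 0.03 without the 5 libraries apart. Sertoli genes had a median of -0.06 (0.15 without them) and Leydig and steroid genes one of 0.03 (0.10 without them), with the androgen synthesis gene CYP17A1 at 55.0 to 163 CPM (median 92.3) in DMSO, 30.7 to 64.7 CPM (median 56.7) at 3 nM and 22.8 to 61.7 CPM (median 27.9) at 10 nM. The log2 difference of CYP17A1 between 10 nM and 3 nM was -0.09 without the 5 libraries. Of the 22 tested Leydig and steroid genes 12 had a positive and 10 a negative sign. Spermatid genes lay at -0.07 (-0.14 without them), germline stem and piRNA genes at -0.18 (-0.07 without them), DNA methylation machinery at -0.25 (-0.12 without them), cholesterol synthesis at -0.13 (-0.13 without them), heat shock and chaperones at 0.02 (-0.14 without them) and circadian clock genes at 0.11 (0.05 without them). Lists for some other tissues, namely intestine, liver and oocyte, had wide ranges in the exposed libraries. Intestine genes summed to 62.6 to 142 CPM in DMSO, 74.4 to 592 CPM at 3 nM and 77.8 to 492 CPM at 10 nM, liver genes to 39.8 to 170.3 CPM in DMSO, 64.3 to 352 CPM at 3 nM and 66.1 to 598 CPM at 10 nM and oocyte genes to 438 to 524 CPM in DMSO, 437 to 1096 CPM at 3 nM and 417 to 638 CPM at 10 nM. The oocyte list also holds org and the cell cycle gene CCNB1, which is on the mitotic list too and had 4905 to 10068 counts in DMSO libraries. In DMSO the oocyte markers zar1, gdf9 and zp2.1 had medians of 6.98, 3.38 and 0.073 CPM, so most of that sum came from other members. The medians of the intestine, liver and oocyte lists between 10 nM and 3 nM were 0.43, 0.15 and -0.44. Without the 5 libraries they were -0.30, -0.58 and 0.07, each on the other side of 0. Erythroid and skeletal muscle genes had medians of 0.30 and 0.38, and 0.12 and 0.31 without them. The skeletal muscle list had its widest range in DMSO, with sums of 156 to 655 CPM, against 151 to 236 CPM at 3 nM and 145 to 208 CPM at 10 nM. Of 8 jacalin lectin genes 2 were tested, jac2 and jac7, with a list median of 4.72 that was -1.33 without the 5 libraries.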
